A study of Mus musculus with 4 samples.

Results

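The genes described here are the neighbours of Aff3 on mouse chromosome 1, chosen by position: 48 named protein-coding genes, 21 on the side that begins with Lonrf2 and 27 on the side that begins with Rev1. A gene was taken up where an array probe carries the accession of one of its RefSeq transcripts, which held for 47 of the 48 genes (61 probes) and left out Vwa3b. In all 20633 features were tested across the array, 33 of them from this neighbourhood. The RNA came from splenic B cells of Aff3+/- and Aff3-/- mice, with 2 samples per genotype, and 1 Agilent one-colour array was hybridised per sample. The cells had been purified as negative for CD43, a surface protein that resting follicular B cells lack, and all 4 cultures had been given LPS at 10 ug/mL and IL-4 at 10 ng/mL for 3 days. Both genotypes carry the targeted Aff3 allele, on 1 chromosome in Aff3+/- cells and on both in Aff3-/- cells, and no wild-type sample is part of the comparison. The labels give no strain, age, sex or construction of the allele, and leave unsaid whether the replicates are separate animals, so the p-values cover the spread of these 4 samples, which may be technical.

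Aff3 belongs to the AF4/FMR2 genes, whose nuclear products are scaffolds for factors that release paused RNA polymerase II. Genes that lie close to a targeted locus are inherited together with it. A knockout allele can therefore bring along the sequence variants of the strain it was made in, and a selection cassette or deletion inside the locus can alter transcription of its neighbours. The comparison of Aff3-/- with Aff3+/- cells across this neighbourhood addresses whether genes near Aff3 differ along with the allele. The level of Aff3 itself could not be read, since 0 probes matched the 7 accessions of its transcripts, and each direction below rests on the labels.

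B cell genes were looked at because of the labelled cell type. All 12 B cell markers of the list, among them Ms4a1 and Pax5, were well above background on the arrays. Detection alone does not set B cells apart. Of markers with a probe, 13 of 19 for T cells and 7 of 12 for myeloid cells also stood well above background on both arrays of a genotype. Signals stood well above background for 24942 to 25862 of the 39429 probes, depending on the array, and saturation was not seen in any gene spot. The number of arrays limits the precision.

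Most genes on the Rev1 side of Aff3 were detected by their probes, and fewer of those on the Lonrf2 side were. A gene was tested when a probe stood well above background on both arrays of either genotype, which 24 of 26 genes with a probe met on the Rev1 side and 9 of 21 on the Lonrf2 side. The genes left out on the Rev1 side were Lyg1 and Lyg2, which encode goose-type lysozymes. On the Lonrf2 side these were Lonrf2, the nearest gene to Aff3, the neuropeptide gene Nms, the clock factor gene Npas2, Tbc1d8, Rfx8, Il1r1, Il1rl2, Il1rl1, Il18r1, the sodium-proton exchanger genes Slc9a4 and Slc9a2, and Tmem182. Of these 14 genes only Il18r1 was well above background on any array, and their 17 probes read between 1.2 and 8.8 intensity units. Of the 33 tested genes 32 had a probe well above background on all 4 arrays, and the remaining gene, Tsga10, on 3. Whether a dim probe reflects a silent gene or a probe that binds poorly was not tested.

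**Figure D1:**
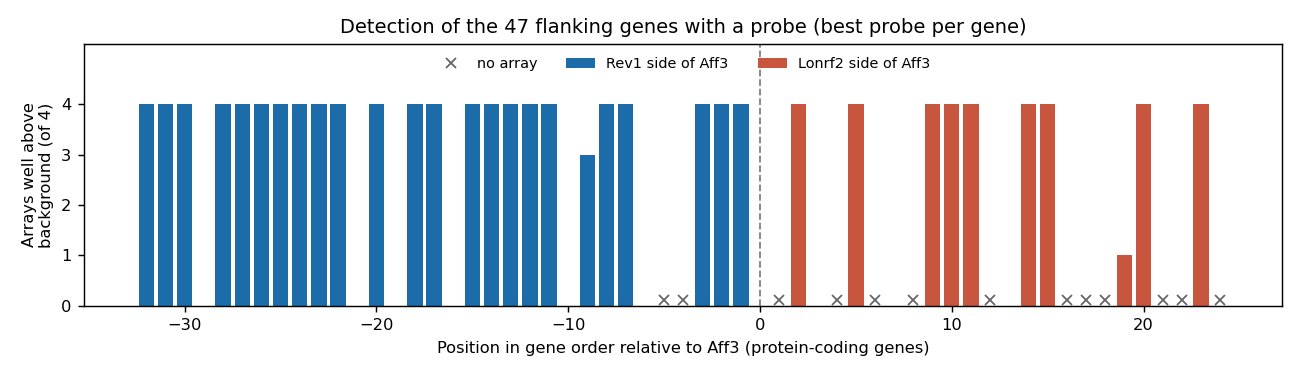
Number of arrays (of 4) on which the best probe of each of the 47 genes was well above background, against the gene's place in the order of protein-coding genes relative to Aff3 at 0, negative toward Rev1. Crosses mark genes below background on every array; they gather on the Lonrf2 side, where 9 of 21 genes were tested against 24 of 26 on the Rev1 side.

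No gene of the neighbourhood differed between the genotypes past the adjusted threshold. With limma and Benjamini-Hochberg adjustment 0 of the 33 genes passed at 0.05, and 0% of all features did (0 of 20633). An unadjusted p under 0.05 was reached by 1 of the 33 genes, Il1r2, and by 2.04% of all features (421). The differences were small. They ran from -0.37 for Tsga10 to +0.44 for Il1r2 on the log2 scale, Aff3-/- minus Aff3+/-, and none exceeded 0.5. For 24 of the 33 genes the difference was smaller than its own standard error, which ranged from 0.11 to 0.30. The 95% interval of the difference stayed within 1 log2 unit of 0, a doubling or halving, for 31 of the 33 genes, and within 0.5 for 21. The exceptions to the first were Tsga10 (-1.09 to 0.36) and Mfsd9 (-1.06 to 0.51), both dim. With 2 arrays against 2, an exact permutation test of a single gene cannot go below a two-sided p of 0.333.

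The neighbourhood as a whole did not stand far from the other genes. The median difference of the 33 genes was -0.036, against -0.011 over all features and -0.001 over 755 other chromosome 1 genes. The median size of the difference, without its sign, was 0.073 here, 0.072 for the other chromosome 1 genes and 0.071 over all features. A size over 0.25 was seen in 5 of the 33 genes (15.2%), 12.3% of the other chromosome 1 genes and 11.2% of all features. The side medians were +0.037 for the 9 genes toward Lonrf2 (5 higher and 4 lower in Aff3-/- cells) and -0.046 for the 24 genes toward Rev1 (8 higher and 16 lower). The Lonrf2 side's sign was not kept, as it turned to -0.002 when the probes of a gene were averaged. It was -0.004 without the filter on dim probes and -0.077 in the deposited values, where all features had a median of -0.073. The latter settings do not hold the same genes as the main fit. Without the filter 47 members were tested, dim ones included. The deposited values covered 35, with none for Pdcl3 (+0.14 in the main fit) and Il1r2 (+0.44). On the Rev1 side the median stayed below 0 in every alternative run, down to -0.068 in the deposited values and up to -0.002 with normexp background correction.

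**Figure D2:**
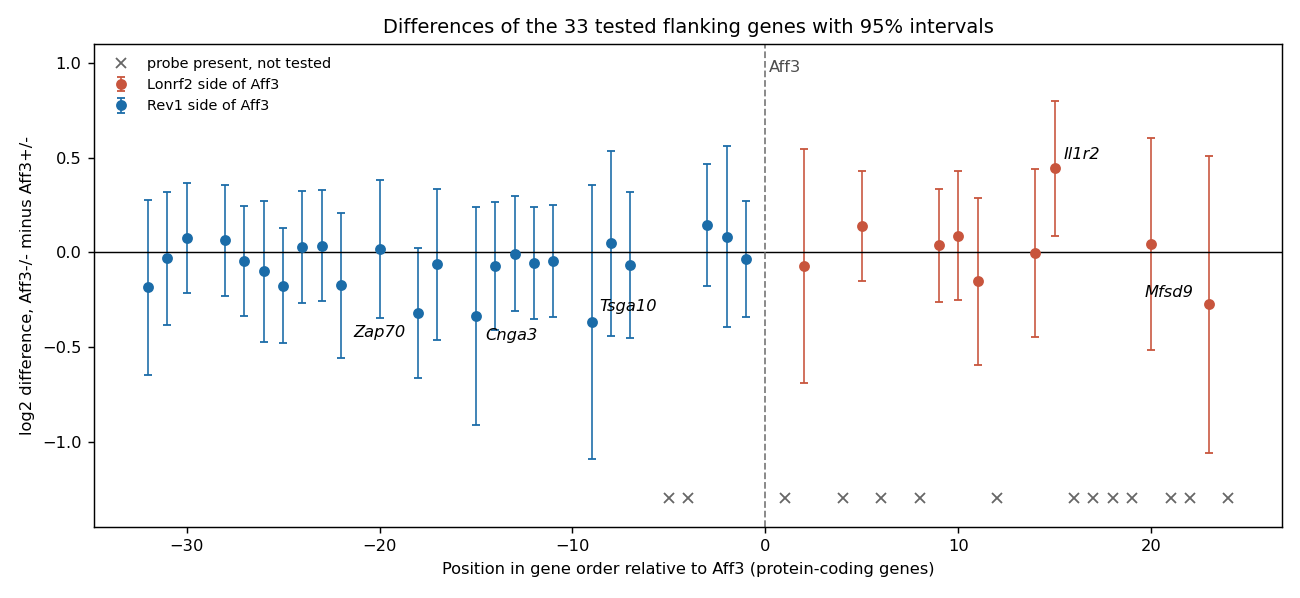
Log2 difference (Aff3-/- minus Aff3+/-) of the 33 tested genes, with the 95% interval of the fit, against the gene's place in the order of protein-coding genes relative to Aff3. Crosses at the bottom are the 14 genes with a probe that were not tested. All intervals but that of Il1r2 (0.09 to 0.80) include 0. The genes named in the plot are the 5 with a difference over 0.25 in size. Being picked for their size, they do not serve as a comparison for the genes next to Aff3.

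In 10 of the 33 genes (30.3%) both arrays of one genotype lay above both arrays of the other, which was the case for 19.6% of all features and 19.9% of the other chromosome 1 genes. Higher in Aff3-/- cells were 5 genes, where 8.45% of all features were, namely Kansl3, Lman2l, Txndc9, Pdcl3 and Il1r2. Lower were the other 5, where 11.1% of all features were, namely Cnnm4, Ankrd23, Fam178b, Zap70 and Unc50. Most of these separations were small, since only Il1r2 and Zap70 differed by more than 0.25. The count rests on all 4 arrays: a lone array is separated more easily, and 17 to 24 of the 33 genes were so when 1 array was left out, where 45.5% to 73.1% of all features were.

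The 6 tested genes nearest to Aff3, 3 on each side, differed by at most 0.145 between the genotypes. Values below are log2 signals relative to the 75th percentile of each array. Rev1, the next gene on one side, encodes a translesion DNA polymerase that also takes part in somatic hypermutation. Rev1 measured -0.95 and -0.97 on the Aff3+/- arrays and -1.06 and -0.94 on the Aff3-/- arrays, so that the genotypes overlapped (difference -0.036 ± 0.12, SE, limma, n = 2 per genotype, adjusted p = 1). Eif5b, which encodes a GTPase that joins the ribosomal subunits, read close to background, at -7.26 and -7.16 in Aff3+/- and -6.92 and -7.34 in Aff3-/- cells. The Aff3-/- arrays of Eif5b enclosed the Aff3+/- ones (difference +0.08 ± 0.18).

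Txndc9, a thioredoxin-like modulator of the chaperonin CCT, measured 2.38 and 2.34 in Aff3+/- cells and 2.59 and 2.43 in Aff3-/- cells by its brightest probe. Both Aff3-/- arrays were the higher ones, by +0.14 ± 0.12 (limma, adjusted p = 1). The other probes of Txndc9 went the opposite way, at -0.054 and -0.28, so the gene has no settled direction.

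On the opposite side Lonrf2 was below background and Chst10 was the first gene tested. Chst10 encodes the sulfotransferase that makes the HNK-1 glycan. It measured 1.68 and 2.19 in Aff3+/- cells and 1.67 and 2.05 in Aff3-/- cells. The arrays of Chst10 split by replicate number rather than by genotype, and the difference was -0.073 ± 0.23. Pdcl3, a phosducin-like partner of the chaperonin CCT, measured 0.62 and 0.67 in Aff3+/- cells and 0.79 on both Aff3-/- arrays. Pdcl3 was thus higher in both Aff3-/- samples, by +0.14 ± 0.11 (95% interval -0.15 to 0.43, adjusted p = 1), and the sign held in every alternative that gave it a value, between +0.12 and +0.16. Cnot11, a subunit of the CCR4-NOT deadenylase, measured -0.24 and -0.18 against -0.21 and -0.15. Those values interleave (difference +0.037 ± 0.11), and the other probe of Cnot11 gave -0.042. Together these 6 genes had a median difference of +0.06. With limma 0 of them reached an unadjusted p under 0.05, where 2.04% of all features did, so so few genes could hardly show a departure. The genotypes were separated for 2 of them (33.3%), Txndc9 and Pdcl3, against 19.6% of all features.

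**Figure D3:**
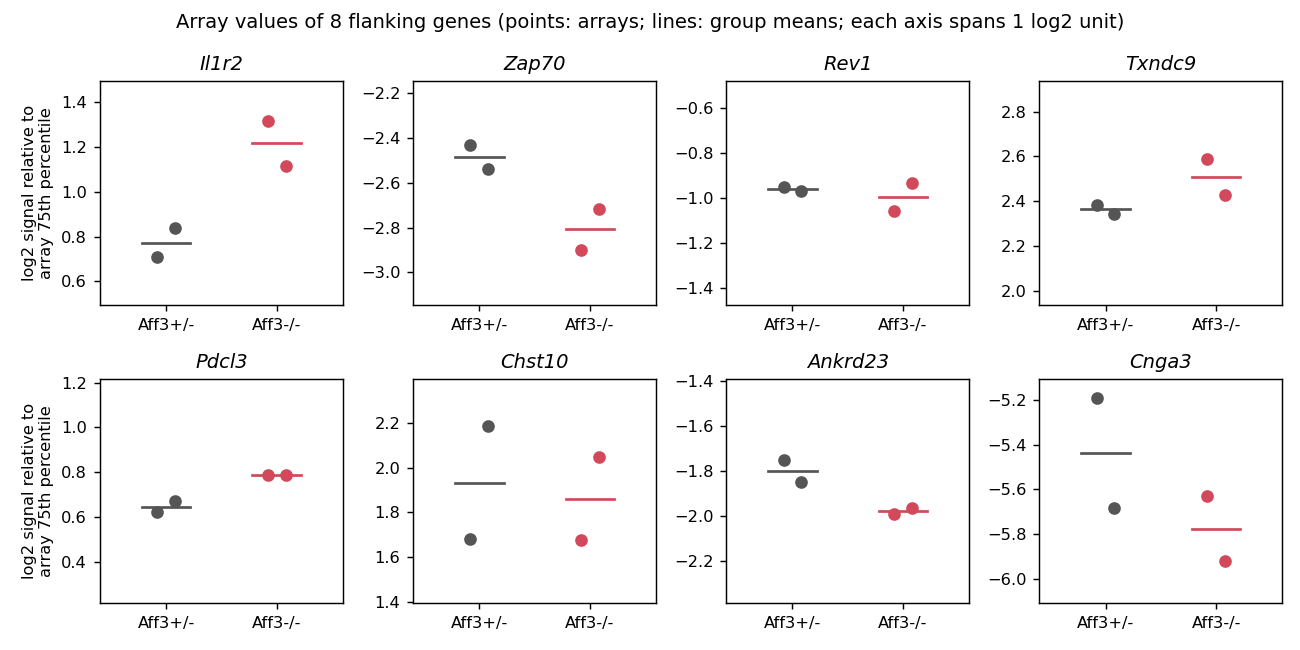
Log2 signal relative to the array's 75th percentile for 8 of the genes, with 1 point per array, a line at the mean of each genotype's 2 arrays, and 1 log2 unit on every vertical axis. The genotypes separate for Il1r2, Zap70, Txndc9, Pdcl3 and Ankrd23 and overlap for Rev1, Chst10 and Cnga3.

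The highest difference of the neighbourhood was that of Il1r2, the fifteenth gene from Aff3 on the Lonrf2 side. Il1r2 encodes the decoy receptor of interleukin-1, which binds the cytokine without signalling and which IL-4 is known to induce in leukocytes. The signal of Il1r2 was 2081 and 2412 intensity units on the Aff3+/- arrays and 3275 and 2789.5 on the Aff3-/- arrays. Relative to the 75th percentile these are 0.71 and 0.84 against 1.31 and 1.11, so both Aff3-/- samples were above both Aff3+/- samples. The difference was +0.44 ± 0.13 (SE, limma), or 1.36-fold, with a 95% interval of 0.09 to 0.80, an unadjusted p = 0.0246 and an adjusted p = 1. The deposited values gave none for Il1r2, so that alternative is missing for it. The difference exceeded in size that of 96.3% of all features. Leaving out an array kept it between +0.34, when Aff3-/- replicate 1 was dropped, and +0.54, when Aff3-/- replicate 2 was. Each such run leaves 1 array in a genotype, which limits what it can show. In bulk RNA, fewer cells that express a gene and less RNA per cell cannot be told apart.

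Neutrophils also make Il1r2, and myeloid markers were compared for that reason. Neutrophils carry CD43, which the purification selects against, but how far it removed them was not tested. Of 14 markers in the list 12 had a probe and 7 were tested, 2 higher and 5 lower in Aff3-/- cells, with 1 separated, against 19.6% of all features (Camp, +0.35 ± 0.17, at 14.6 to 21.8 intensity units). The neutrophil genes S100a8, S100a9, Ngp and Mpo were below background on every array. Others of the list were not: Csf3r, for the G-CSF receptor, differed by -0.019 ± 0.13, the integrin gene Itgam by -0.088 ± 0.13 and the elastase gene Elane by -0.19 ± 0.35. The summed level of the tested markers, in multiples of the 75th percentile, was 88.5 and 93.5 in Aff3+/- cells and 83.8 and 95.1 in Aff3-/- cells, most of it from Csf3r. The other 6 markers summed to 9.11 and 8.37 against 8.43 and 7.77, which also overlap. Within each replicate number that smaller sum was lower in Aff3-/- cells, whereas the sum with Csf3r was lower in replicate 1 only. The part of myeloid cells in the Il1r2 values was not tested.

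The 250 bases before the RefSeq start of Il1r2 are shown because its difference was the highest of the separated genes, beside those of Zap70, whose difference was the lowest. They come from RefSeq on the GRCm38.p6 build, plus strand, at chr1:40085843-40086092 for Il1r2 and chr1:36761548-36761797 for Zap70. Capitals mark a match to TTCNNNGAA, the palindromic core bound by STAT factors.
Il1r2: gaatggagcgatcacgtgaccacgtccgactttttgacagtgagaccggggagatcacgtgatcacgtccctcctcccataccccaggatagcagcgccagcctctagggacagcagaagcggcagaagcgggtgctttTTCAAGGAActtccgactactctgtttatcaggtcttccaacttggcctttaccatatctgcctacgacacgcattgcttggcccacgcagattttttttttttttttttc
Zap70: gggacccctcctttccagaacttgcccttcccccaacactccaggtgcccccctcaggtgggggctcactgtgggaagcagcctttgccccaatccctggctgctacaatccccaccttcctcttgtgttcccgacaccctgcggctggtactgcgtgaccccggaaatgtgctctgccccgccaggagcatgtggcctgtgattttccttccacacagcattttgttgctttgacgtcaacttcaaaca
The match in Il1r2 begins 111 bases before the start. Either strand of TTCNNNGAA reads alike, and 7.02% of 32851 windows of the same length held it. The wider-spaced TTCNNNNGAA, the form that STAT6 favours, was found in neither window and in 5.85% of all windows. Promoter windows were given for 44 of the 48 genes, 63 windows in all, and 5 of those held TTCNNNGAA (Ankrd23, Il18r1, Il1r2, Lipt1 and Mitd1) and 4 the wider form (Cnga3, Il18r1 and Il18rap).

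Il1r2 opens a cluster of 6 interleukin receptor genes, of which only Il1r2 and Il18rap were tested. Il1r1 encodes the signalling receptor for interleukin-1, Il1rl2 that for interleukin-36 and Il1rl1 that for interleukin-33, and all 3 were below background on every array. Il18r1 and Il18rap encode the chains of the interleukin-18 receptor. The brighter Il18r1 probe read 3.9 and 8.8 intensity units in Aff3+/- cells, above background only for the second, and 1.4 on both Aff3-/- arrays, so no fold is given. Il18rap was faint, at -6.88 and -6.49 in Aff3+/- and -6.45 and -6.84 in Aff3-/- cells. The Il18rap arrays overlapped (difference +0.043 ± 0.21), and the gene after the cluster that was tested, the transporter gene Mfsd9, differed by -0.28 ± 0.30.

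The ligands and signalling genes that serve these receptors, located elsewhere in the genome, showed no common shift. Of 32 listed genes 22 were tested, 12 higher and 10 lower, with a median difference of +0.004. With limma 0 reached an unadjusted p under 0.05, where 2.04% of all features did. The I kappa B kinase gene Chuk was the one separated gene (+0.08 ± 0.11), where 19.6% of all features were separated. Il1b, for the main secreted interleukin-1, was +0.49 ± 0.28. It was dim, at 14.6 and 24.3 intensity units in Aff3+/- cells and 30.5 and 22.4 in Aff3-/- cells, and the genotypes overlapped. Il18 was -0.48 ± 0.33, through 1 Aff3-/- array at -2.76 when the other 3 lay at -1.80. Il1a and Il1rn were below background on every array, and the accessory chain Il1rap was level (+0.003 ± 0.12).

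Zap70, the kinase that couples the T cell receptor to its signal and that some activated B cells also make, was the lowest of the separated genes. It lies eighteenth from Aff3 on the Rev1 side. It measured -2.43 and -2.54 in Aff3+/- cells and -2.90 and -2.72 in Aff3-/- cells, so that both Aff3-/- arrays were dimmer. The difference was -0.32 ± 0.13 (SE, limma), or 1.25-fold lower, with a 95% interval of -0.67 to 0.02, an unadjusted p = 0.0608 and an adjusted p = 1. The other Zap70 probe, at -3.90 and -3.97 against -4.29 and -4.43, was separated too (-0.42 by its own arrays), and the sign held in all 12 alternatives, between -0.41 and -0.22.

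T cells carry CD43, which the purification selects against, but how far it removed them was not tested. Of 19 listed T cell markers 13 were tested, 5 higher and 8 lower, with a median of -0.038. Cd3g, Cd247, Bcl11b, Trat1, Ubash3a and Themis were below background on every array. Others of the list were not, among them Lck at 8038 to 9169 intensity units, Cd4 at 2601 to 3142 and Cd3e at 307 to 386. The 2 separated, against 19.6% of all features, were Cd8a (+1.01 ± 0.43, above background on just 1 Aff3+/- array) and Cd28, for a costimulatory receptor (+0.33 ± 0.13), both higher in Aff3-/- cells. The lowest difference was that of Cd2, an adhesion receptor gene that B cells also express, at 2.23 and 1.70 in Aff3+/- cells and 1.75 and 1.22 in Aff3-/- cells (-0.48 ± 0.27), and these arrays overlapped. The summed level of the 13 genes was 15.6 and 13.6 in Aff3+/- cells and 13.7 and 12.1 in Aff3-/- cells, much of it from Lck. The other 12 summed to 8.39 and 7.05 against 7.07 and 5.82, which overlap. Within each replicate number, however, both sums and Cd2 were lower in Aff3-/- cells, as Zap70 was. The labels do not say that a number marks a pair. The part of T cells in the Zap70 values was not tested. Of the natural killer list 5 of 15 genes were tested, 1 higher and 4 lower, with Ncr1, Klrb1c and Eomes below background. Nkg7, at 1547 to 1909 intensity units, and Prf1, at 892 to 1149, were above it on all 4 arrays. Tbx21 (-0.24 ± 0.18) and Rora (+0.51 ± 0.40) had the smallest p there. Of the mast cell list 4 of 10 were tested, 3 higher and 1 lower, with Cpa3, Mcpt4, Mcpt8 and Fcer1a below background. Hdc, at 235 to 303 intensity units, and Kit, at 84 to 241, were above it on all 4 arrays. Prss34 (+0.24 ± 0.33) and Tpsb2 (-0.086 ± 0.19) had the smallest p there. B cell markers were 3 higher and 9 lower (median -0.12), with the smallest p for Cd22 (-0.25 ± 0.17) and Pax5 (-0.22 ± 0.17). All 7 plasma cell markers were on the higher side (median +0.12), Jchain alone without overlap (+0.33 ± 0.17), against 19.6% of all features. With limma 0 genes of these lists reached an unadjusted p under 0.05, where 2.04% of all features did.

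The remaining separated genes on the Rev1 side differed by less than 0.2. Ankrd23, an ankyrin repeat gene best known from muscle, measured -1.75 and -1.85 in Aff3+/- and -1.99 and -1.96 in Aff3-/- cells. That is -0.18 ± 0.12, while its dimmer probe gave +0.08. Fam178b was lower in both Aff3-/- samples by -0.17 ± 0.14, at -1.96 and -2.24 against -1.90 and -1.95. The magnesium transporter gene Cnnm4 (-0.047 ± 0.11) and Unc50 (-0.057 ± 0.11), whose product acts in the Golgi, were lower, and Kansl3 (+0.075 ± 0.11), a subunit of the NSL histone acetyltransferase complex, and the lectin gene Lman2l (+0.063 ± 0.11) higher. Each of these differences was smaller than its standard error.

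The farthest differences on that side belonged to dim genes whose genotypes overlapped. Tsga10, a testis and sperm gene, measured -6.63 and -7.21 in Aff3+/- cells and -7.04 and -7.53 in Aff3-/- cells. The lower Aff3+/- array fell below the higher Aff3-/- one, the difference was -0.37 ± 0.28, and with normexp it turned to +0.19. Cnga3, a channel subunit of cone photoreceptors, was at -5.19 and -5.68 against -5.63 and -5.92 (-0.34 ± 0.22), and it too changed sign in 1 of 12 alternatives.

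Further members, chosen as examples after their values were seen, differed by less than their standard error. The semaphorin gene Sema4c (+0.035 ± 0.11), Arid5a, which encodes an RNA-binding protein that stabilises cytokine messages (-0.031 ± 0.13), and the kinase gene Map4k4 (-0.004 ± 0.17) were among them, as were Coa5, for a cytochrome oxidase assembly factor (-0.009 ± 0.12), and the lipoyltransferase gene Lipt1 (+0.048 ± 0.18).

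Coa5 and Unc50 start back to back, and both lay within 0.06 of 0 (-0.009 ± 0.12 and -0.057 ± 0.11). The run of 35 bases that parts their RefSeq starts, chr1:37430104-37430138 on GRCm38.p6, is shown in the direction of Unc50 because both genes lie at its ends and both were tested.
Coa5/Unc50: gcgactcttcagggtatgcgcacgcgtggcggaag
Over the neighbourhood 20 pairs of tested genes are next to each other in the gene order, and in 11 of them both differences had the same sign. Il1r2 and its tested neighbour Map4k4 were not alike (+0.44 and -0.004), nor did the gene next to Zap70, Tmem131 (-0.064 ± 0.15), share its size. Separate probes of 1 gene gave the same limit: of 8 tested genes with more than 1 probe above the filter, 4 had probes of both signs (Ankrd23, Cnnm3, Cnot11 and Txndc9).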

How the data were processed

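RNA of the 4 samples (150 ng each, Cy3-labelled, per the labels' protocols) was hybridised to 1-colour Agilent arrays on 1 slide. The deposited scanner files hold intensity values made with Agilent Feature Extraction 10.7.1.1, per the submitters' processing notes. They are background-subtracted and not normalized between arrays, per the file headers. A deposited table of log2 values, centred per probe, served as an alternative; its scaling per array is not given in the sources used here.

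Control spots (1377 of 44397) and outlier spots were dropped. The log2 processed signal minus the array's 75th percentile was averaged per probe. Kept were 25116 of 39429 probes (well above background on both arrays of a genotype), and a gene took its brightest kept probe. Names and gene order came from RefSeq (GRCm38.p6), without coordinates, since the array design cites another build. Differences were fitted over all features with limma 3.58.1 in R 4.3.3 (lmFit, eBayes, two-sided, Benjamini-Hochberg, 2 residual degrees of freedom per gene), tested on simulated data. Values after ± are standard errors.

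Members were to be named when separated with an unadjusted p under 0.05, when among the 3 tested nearest to Aff3 on a side, when in the receptor cluster, or when highest in size on a side, and list genes when separated or of the 2 smallest p. Others were added after their values were seen. The members and lists were chosen with earlier results of these data known. Processing choices that were varied are given with their effect in the closing section.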

Additional observations from a re-analysis of the deposited data

How the results depend on the processing

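The number of features past the adjusted threshold, and of flanking genes past it, was 0 in all 12 alternatives run with limma. Normexp on the median signal was chosen after seeing the data, since normexp on the mean signal could not be run. It gave 3 flanking genes with an unadjusted p under 0.05 (2.75% of all features), 16 without overlap (21.8% of all features) and medians of +0.011, +0.057 (Lonrf2 side) and -0.002 (Rev1 side), against +0.006 over all features. It turned Tsga10 to +0.19 and Il18rap to -0.015. Quantile normalization gave medians of -0.018 and, on the Rev1 side, -0.031. The deposited values covered 35 flanking genes, without Pdcl3 and Il1r2, and gave 2 genes at an unadjusted p under 0.05 (2.38% of all features). Their medians were -0.073, -0.077 (Lonrf2 side) and -0.068 (Rev1 side), with Txndc9 at -0.055 and Cnot11 at -0.042. Without the filter 3 of 47 genes had such a p (2.49% of all features), and the medians were -0.046 and, on the Lonrf2 side, -0.004. Averaging the probes of a gene gave 2 such genes (2.11% of all features), medians of -0.047 and -0.002 (Lonrf2 side), Txndc9 at -0.063 and Cnot11 at -0.002. The deposited Txndc9 and Cnot11 values match those of another probe of each gene in the main processing (-0.054 and -0.042). Their brightest probes gave +0.145 and +0.037 there, so these reversals go with a change of probe. The cause of the remaining changes was not tested, apart from the other probes that enter the mean and the differing sets of genes.

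Leaving out 1 array in turn gave 0 to 1 genes at an unadjusted p under 0.05 (1.45% to 4.71% of all features), 17 to 24 without overlap, and medians of -0.028 to -0.012 over both sides, +0.039 to +0.133 on the Lonrf2 side and -0.066 to -0.033 on the Rev1 side. Signs turned for Il18rap (-0.15 to +0.24), Eif5b (-0.13 to +0.30), Rev1 (-0.097 to +0.025) and Chst10 (-0.325 to +0.179), but not for Il1r2 (+0.34 to +0.54). Same-numbered arrays deviated together (r = 0.557 across features), although the labels do not say that a number marks a shared litter or day. With the replicate number as a block 4 flanking genes had an unadjusted p under 0.05, as did 7.05% of all features. The other 91 values of single genes, which cover only the members named by the rule given above, kept their sign and stayed short of the adjusted threshold of 0.05. Of all 33 tested members only 10 kept the main sign in every alternative that gave them a value, 5 higher and 5 lower in Aff3-/- cells. Low signal limits Eif5b, Il18rap, Mfsd9, Tsga10 and Creg2, which lie near background.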
